A study of Mus musculus with 4 samples.

Results

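The 10 genes described here, Abcg1, Slc37a1, Pde9a, Wdr4, Cbs, U2af1, Cryaa, Sik1, Hsf2bp and Rrp1b, lie on both sides of Pknox1 on mouse chromosome 17. They were chosen by name as neighbours of Pknox1, by a rule that uses no expression values but with earlier results of these data known, out of 22718 genes in the expression files. Among them, 9 were found by their symbol, and Sik1, which the files list under the older symbol Snf1lk, was found by its Ensembl identifier (ENSMUSG00000024042). By position, 4 of the genes lie before Pknox1 and 6 after it. Pknox1 encodes Prep1, a homeodomain transcription factor. The study compared RNA from embryonic stem (ES) cells, a pluripotent cell type derived from blastocysts, between wild type cells and a line labelled Prep1-/- (line KO2 in the study's methods), and mapped Prep1 on chromatin of wild type ES cells by ChIP-seq. Both RNA samples carry the strain label C57BL/6, and both lines were grown on gelatin with leukemia inhibitory factor (LIF), which holds ES cells undifferentiated. Each genotype is 1 line and 1 library, so that a difference between genotypes and a difference between these lines or libraries cannot be told apart. The ChIP sample has the same strain label, while its protocol names R1 ES cells. How the Prep1 allele was altered, and which strain the DNA around it came from, is not given in the sources used here.

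A targeted allele stays linked to the chromosome segment in which it was made, and its neighbours are therefore commonly read alongside the gene itself. The neighbours of Pknox1 are largely unrelated in function. Abcg1 exports cholesterol, Slc37a1 carries sugar phosphates across the membrane of the endoplasmic reticulum, Pde9a hydrolyses cyclic GMP and Cbs makes cystathionine from homocysteine. Wdr4 is a subunit of a tRNA methyltransferase, U2af1 recognises the end of introns during splicing, and Rrp1b is a nucleolar protein of ribosome assembly. Sik1 is a protein kinase that acts on transcriptional coactivators, Hsf2bp binds the heat shock factor Hsf2 and the repair protein Brca2, and Cryaa is a crystallin of the eye lens.

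Prep1 recognises a sequence of 10 bases when bound to DNA with its partner Pbx. Of the 14 Prep1 peaks within 1 Mb of Pknox1, 5 held its decamer (TGA, any base, then TGACAG) on either strand, and these sites are shown because they place the factor's motif around the neighbours. Over all 3902 peaks of the file, 24.3% held it. The search took exact letters only, which is stricter than the study's motif search, and passes over sites that differ in a base. Each line gives the peak's place and score, the position of the stretch on mm9 (NCBIM37) and its strand. Capitals mark the motif, and each stretch is read from the strand on which the motif runs 5′ to 3′.
Glo1 first exon, peak score 160, chr17:30749580-30749609, plus strand: tgcagtcggcTGAGTGACAGgccaaggggc
Rsph1 intron, peak score 21, chr17:31404834-31404863, plus strand: ccctcaaaggTGAGTGACAGacagctcaac
Pknox1 first intron, peak score 219, chr17:31701829-31701858, minus strand: gcggagcggtTGAGTGACAGcttacctggg
Pknox1 last exon, peak score 14, chr17:31742953-31742982, minus strand: gcctggagagTGAGTGACAGtgagagccac
between Cryaa and Sik1, peak score 26, chr17:31945177-31945206, minus strand: ctggctccagTGAGTGACAGggaaggcccc
All 5 sites have the same 10 letters, with G as the free base. None of them lies in one of the 10 neighbours. The site near the end of Pknox1 is the closest to one of them, Cbs, and the site in Rsph1 lies ahead of Slc37a1.

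The wild type library held 29596294 reads and the library labelled Prep1-/- held 25717811. Levels are given as RPKM, the authors' reads per kilobase of gene with their own scaling between libraries, and differences as the KO/WT ratio of RPKM. Scaling by these summed reads instead would raise every ratio by a factor of 1.03. The interval behind each ratio is an exact (Clopper-Pearson) 95% interval for how the reads of the gene divided between the libraries. It covers counting error only, and since PCR reads are not independent molecules the true error is larger. The methods of the study state far fewer reads per sample than these totals, for a reason not given in the sources used here. The intervals take the deposited counts as reads, and are too narrow if those counts overstate the reads. Pknox1 (chr17:31701718-31744638, plus strand) had 505 reads in wild type and 332 in the library labelled Prep1-/-, with RPKM of 7.85 and 5.78 and a ratio of 0.736 (95% interval 0.638 to 0.846). Reads of the targeted gene were thus present in the library labelled Prep1-/-, and the files do not say from which part of the transcript they came. For the protein, which RNA does not measure, the paper reports by immunoblot that Prep1 was lost in both null lines, KO2 among them. All directions below are those of the library with this label. ES cell markers were high in both libraries: the 10 markers, Pou5f1, Nanog and Sox2 among them, summed to an RPKM of 2018 in wild type and 2326 in the library labelled Prep1-/-. Summed RPKM of 7 fibroblast markers was 151 and 172, that of 6 primitive endoderm markers 357 and 334, that of 5 trophectoderm markers 592 and 346, and that of 4 neural ectoderm markers 24.9 and 18.9, in the same order. In each of these sums 1 gene made up most of the total: 123 and 140 for fibroblast, 347 and 328 for primitive endoderm. The values were 539 and 321 for trophectoderm, and 22.2 and 15.2 for neural ectoderm. The sums therefore say little about the other markers. By the filter described below, which called 13.3% of all genes lower and 6.91% higher, 4 of the 5 trophectoderm, 3 of the 6 primitive endoderm, 1 of the 7 fibroblast and 1 of the 4 neural ectoderm markers were lower, 1 neural ectoderm and 1 ES cell marker were higher, and no marker was at 0 reads in either library. In these bulk samples fewer cells of a type and less RNA per cell cannot be told apart. The part of other cell types in the ratios of the neighbours was not tested.

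Cryaa aside, the neighbours were expressed at an RPKM above 1 in both libraries, and most of them had a KO/WT ratio above 1. For 3 of those with a ratio above 1, the counting interval on the deposited scale spanned 1. Of these 9 genes, 7 had a ratio above 1 and 2, Wdr4 and Cbs, a ratio below 1, whereas the ratio was above 1 for 41.4% of all 14254 genes whose RPKM exceeded 1 in at least 1 library (the genes tested below) and for 34.7% of those on chromosome 17. The median absolute log2 ratio was 0.30 over these 9 genes, 0.21 over all genes and 0.21 over chromosome 17. At the study's ratio limits, 1 neighbour, Hsf2bp, was higher (ratio over 1.5, here with RPKM over 1 in the KO library), beside 6.91% of all genes tested and 6.17% of those on chromosome 17. None was lower (ratio under 0.7, with RPKM over 1 in wild type), beside 13.3% of all genes and 14.4% of those on chromosome 17. With RPKM over 1 required in wild type for both directions, Hsf2bp was still the neighbour called higher, beside 4.52% of 13795 genes. A call in 1 of 9 genes, 11.1%, stands beside 20.2% of all genes in either direction. No test was possible with 1 library per genotype, and the differences have no replicate check.

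**Figure D1:**
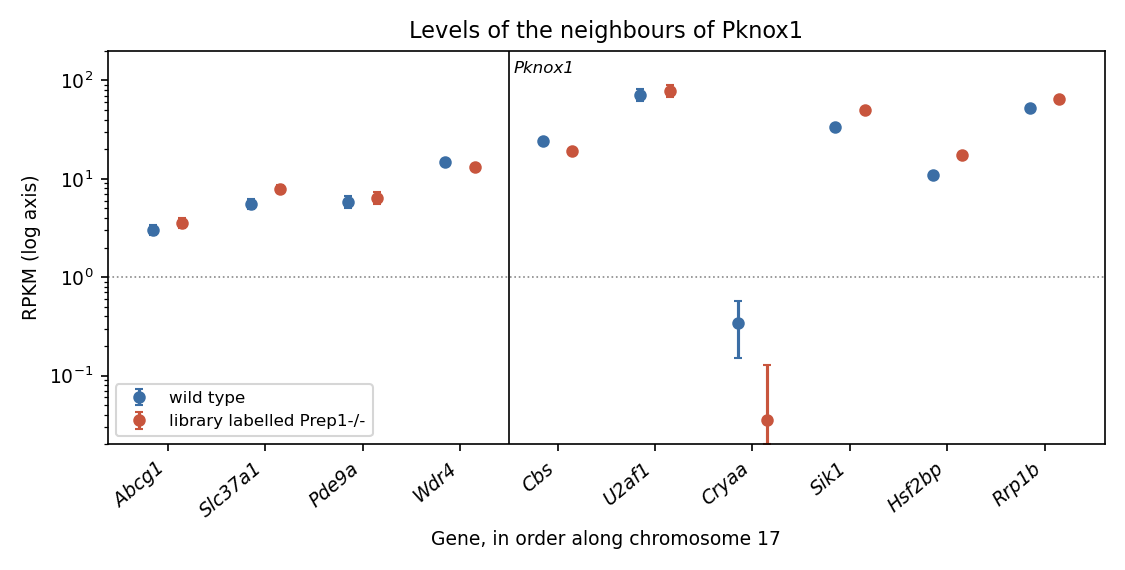
RPKM (log axis) of the 10 neighbours of Pknox1, in order along chromosome 17, in the wild type library (blue) and the library labelled Prep1-/- (red). Bars are exact 95% counting intervals of 1 library each, the black line marks the place of Pknox1 and the dotted line an RPKM of 1; Cryaa alone lies below 1, and Sik1 and Hsf2bp show the clearest upward shift.

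Among the genes of transport and small molecules, Slc37a1 was higher and Cbs lower in the library labelled Prep1-/-, and the intervals of Abcg1 and Pde9a spanned 1. Slc37a1, the sugar phosphate carrier (chr17:31432428-31487641, plus strand), had 315 reads in wild type and 400 in the library labelled Prep1-/-. Its RPKM was 5.55 and 7.87, a ratio of 1.42 (95% interval 1.22 to 1.65), which is below the filter of 1.5 while its interval reaches past it. Cbs, the enzyme that opens the path from homocysteine to cysteine (chr17:31749568-31774144, minus strand), is the nearest neighbour, 4.93 kb beyond the end of Pknox1. It had 1961 and 1376 reads, RPKM of 24.1 and 18.9, and the lowest ratio among the expressed neighbours, 0.785 (95% interval 0.732 to 0.841). The interval of Cbs overlaps that of Pknox1 itself and lies wholly above the filter of 0.7. Of all genes tested, 21.7% had a lower ratio than Cbs.

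Abcg1, the cholesterol exporter (chr17:31194643-31252722, plus strand), is the most distant of the neighbours before Pknox1. It had 281 and 295 reads, RPKM of 3.05 and 3.58, and a ratio of 1.17 (95% interval 0.994 to 1.39). For Pde9a, the phosphodiesterase of cyclic GMP (chr17:31523179-31613255, plus strand), there were 207 reads in wild type and 205 in the library labelled Prep1-/-. Its RPKM was 5.82 and 6.44 and its ratio 1.11 (95% interval 0.908 to 1.35). At this depth a difference was not detectable for Pde9a. For Abcg1 it depended on the scaling: its interval lay above 1 under each of the 3 other scalings, from 1.02 to 1.43 with scaling by summed reads.

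Of the genes that act on RNA, Rrp1b was higher, while Wdr4, slightly lower on the deposited scale, and U2af1 were close to 1. Rrp1b, the nucleolar protein (chr17:32173045-32199810, plus strand), had 3008 and 3318 reads, RPKM of 52.2 and 64.3 and a ratio of 1.23 (95% interval 1.17 to 1.30). Wdr4, the tRNA methyltransferase subunit (chr17:31631268-31656919, minus strand), had 865 and 691 reads, RPKM of 14.8 and 13.2 and a ratio of 0.893 (95% interval 0.807 to 0.988). The interval of Wdr4 spanned 1 under each of the 3 other scalings of the libraries, from 0.831 to 1.02 with scaling by summed reads, while that of Rrp1b stayed above 1. Ndufv3, a small subunit of mitochondrial complex I, starts 141 bp from Wdr4 on the opposite strand and had a ratio of 1.05 (95% interval 0.974 to 1.13), so that the interval of Wdr4 overlaps that of the gene across its promoter.

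U2af1, the splicing factor subunit (chr17:31784027-31795699, minus strand), had 228 and 225 reads, RPKM of 71.3 and 78.7, and a ratio of 1.10 (95% interval 0.914 to 1.33). Its RPKM stands highest among the neighbours, but few reads lie behind it. The length that reads and RPKM imply for U2af1 is 108 bp, against 907 bp for its longest annotated transcript, and only 2.63% of genes had an implied length below 0.2 of their longest transcript. The level of U2af1 relative to the other genes is uncertain for this reason, while its ratio does not depend on length.

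Sik1 and Hsf2bp had the highest ratios among the neighbours. Sik1, the salt-inducible kinase (chr17:31981193-31992737, minus strand), had the most reads, 4134 in wild type and 5478 in the library labelled Prep1-/-. Its RPKM was 33.5 and 49.6, a ratio of 1.48 (95% interval 1.42 to 1.54), on the edge of the filter. With the libraries scaled by their summed reads the ratio of Sik1 became 1.52, past the filter. Hsf2bp, the partner of Hsf2 and Brca2 (chr17:32081714-32171453, minus strand), had 867 and 1246 reads, RPKM of 11.0 and 17.6 and a ratio of 1.61 (95% interval 1.47 to 1.75). This was the only neighbour past the filter, its interval reaches below 1.5, and 94.2% of all genes tested had a lower ratio. Hsf2bp and Rrp1b start 1.59 kb apart on opposite strands, and their intervals do not overlap. A pseudogene and a 7SK RNA copy are annotated within Hsf2bp on the other strand and have no entry of their own in the files. The library kit named in the labels does not mark strand, while the paper speaks of transcripts from the sense strand. Whether any reads of the pseudogene and the 7SK copy were kept apart from those of Hsf2bp is therefore unclear.

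Cryaa, the lens crystallin (chr17:31814878-31818667, plus strand), was barely detected, with 10 reads in wild type and 0 in the library labelled Prep1-/-. Its RPKM of 0.344 and 0.0350 lie below 1 in both libraries, and the second value is above 0 only because RPKM was made from reads plus 1. The 95% interval of its ratio reached up to 0.499. With 3 reads as the limit that a count of 0 allows in that library, and the wild type count taken as exact, Cryaa would be at least 2.98-fold lower there. It has too few reads to enter the filter.

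**Figure D2:**
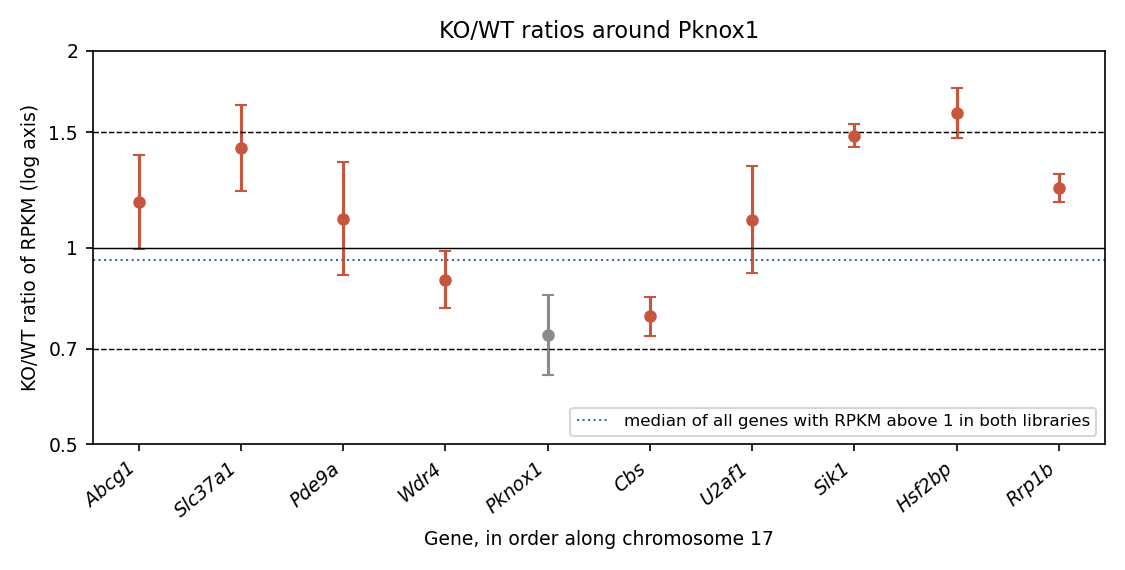
KO/WT ratio of RPKM (log axis) for the 9 expressed neighbours (red) and Pknox1 (grey), in order along chromosome 17, with exact 95% counting intervals. Dashed lines mark the filter at 0.7 and 1.5 and the dotted line the median of all genes, 0.955; among the genes drawn, Wdr4, Pknox1 and Cbs lie below 1 and the others, U2af1 among them, above it.

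On the deposited scale, 4 neighbours (Slc37a1, Sik1, Hsf2bp and Rrp1b) had an interval above 1, 2 (Wdr4 and Cbs) had one below 1, and 3 (Abcg1, Pde9a and U2af1) had one that spanned 1. Of all genes tested, 20.7% had an interval above 1 and 36.3% below 1, and on chromosome 17 the shares were 18.9% and 40.5%. Under each of the 3 other scalings, 5 neighbours had an interval above 1, Abcg1 being added, and 1, Cbs, below it. Among the named neighbours, those near Pknox1 and those farther away had different ratios. The 4 expressed neighbours within 100 kb, Pde9a, Wdr4, Cbs and U2af1, had ratios of 0.785 to 1.11, and none of them had an interval above 1. The 5 beyond 200 kb, Abcg1, Slc37a1, Sik1, Hsf2bp and Rrp1b, had ratios of 1.17 to 1.61, and 4 of these intervals lay above 1. These groups do not overlap in ratio. Other genes at 200 kb to 0.5 Mb with an RPKM above 1 in either library lay outside the range of these 5. Ubash3a was below it, with a ratio of 0.545, and Rsph1 above it, with 3.04. The 2 groups of neighbours were formed after the values were seen, hold few genes from the same pair of libraries, and were not tested. The median over the 9 genes was 1.17, beside 0.955 for the 13217 genes with an RPKM above 1 in both libraries, Pknox1 left out, and 0.932 for 609 genes of chromosome 17 farther than 1 Mb from Pknox1.

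The order of the levels was alike in both libraries. By RPKM, U2af1, Rrp1b, Sik1 and Cbs led in wild type, followed by Wdr4, Hsf2bp, Pde9a, Slc37a1, Abcg1 and Cryaa. In this order Pde9a and Slc37a1 did not differ beyond counting error. In the library labelled Prep1-/-, Hsf2bp stood above Wdr4 and did not differ from Cbs beyond counting error, and Slc37a1 stood above Pde9a with overlapping intervals.

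All genes within 1 Mb of Pknox1 were then taken, without choosing neighbours by name. Of 32 such genes, 23 had an RPKM above 1 in either library, of which 4 were lower and 4 higher by the filter. This is 34.8% of 23 genes, beside 20.2% of all genes and 20.6% of chromosome 17. The higher ones were Hsf2bp, Rsph1, Dnahc8 and Cyp4f39. Rsph1, a protein of the radial spokes of cilia, had 49 reads in wild type and 135 in the library labelled Prep1-/-, a ratio of 3.04 (95% interval 2.21 to 4.36), the highest at the locus. Dnahc8, an axonemal dynein heavy chain, had 858 and 1484 reads and a ratio of 1.93, and the cytochrome Cyp4f39 had 66 and 126 reads and a ratio of 2.12. The lower ones were Akap8l with a ratio of 0.570, Wiz with 0.631, Ubash3a with 0.545 and Glp1r, the GLP-1 receptor, with 0.619. Higher and lower genes lay on both sides of Pknox1, with 2 of each on each side. None of the genes past the filter lay within 100 kb of Pknox1, where only 5 genes besides Pknox1 entered the filter. Beside a share of 20.2% among all genes, 0 of 5 says little about closeness to Pknox1.

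**Figure D3:**
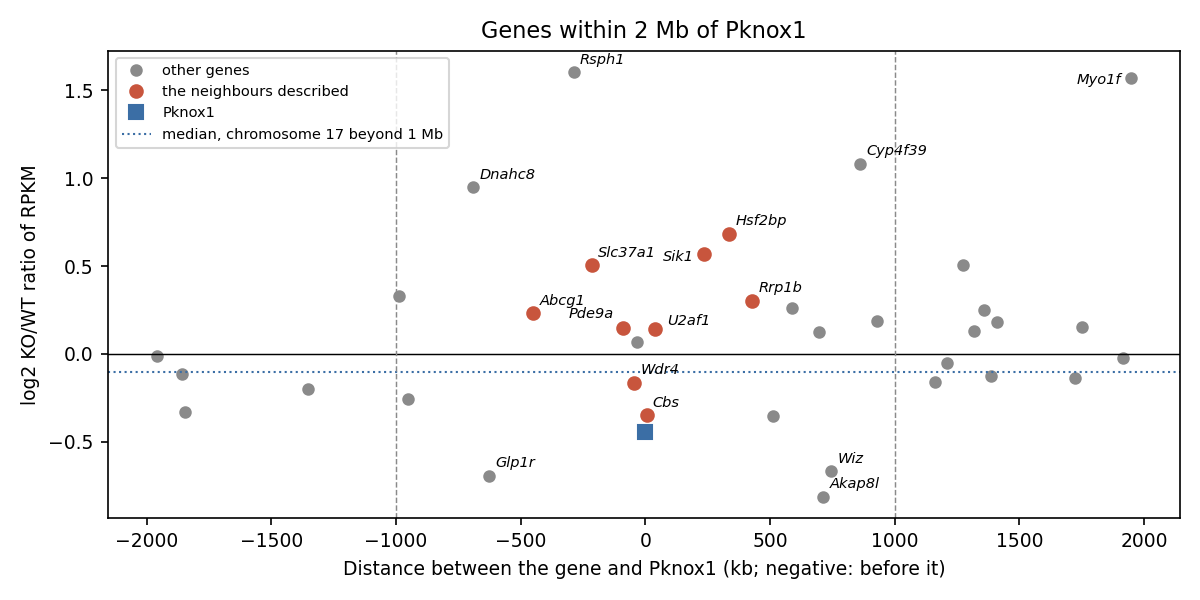
Log2 KO/WT ratio of RPKM of genes with an RPKM above 1 in both libraries against their distance from Pknox1 in kb, with the neighbours in red, Pknox1 as a blue square and other genes in grey; Ubash3a, below 1 in the library labelled Prep1-/-, is not drawn. Dashed lines mark 1000 kb on either side and the dotted line the median of chromosome 17 beyond them, -0.10. The neighbours stay between -0.35 and 0.68, and other genes reach beyond this range on both sides. One of these, Rsph1, lies 287 kb from Pknox1, nearer than the neighbour Hsf2bp at 337 kb.

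Median ratios by distance were 1.17 for 11 genes up to 0.5 Mb from Pknox1, 1.09 for 11 genes at 0.5 to 1 Mb, 0.983 for 15 genes at 1 to 2 Mb, 0.917 for 151 genes at 2 to 5 Mb and 0.940 for 420 genes farther away on chromosome 17. The 11 genes up to 0.5 Mb are the 9 expressed neighbours with Ndufv3 and Rsph1. Their median is therefore not separate from that of the neighbours. For the 5 genes within 0.1 Mb the median was lower, 1.05. The median over the 22 genes within 1 Mb with an RPKM above 1 in both libraries was 1.12, and without the named neighbours it was 1.09 over 13 genes. Genes before and after Pknox1 had medians of 1.14 and 1.12. Among 20 chromosomes, the median of chromosome 17 was 0.933, rank 5 from the lowest, in a range from 0.779 for chromosome 8 to 1.08 for chromosome X. With no filter and 0.1 added to RPKM, the median within 1 Mb was 0.976, below 1, and within 2 Mb it was 1.10 with the filter. The value within 2 Mb stayed above the median of chromosome X. The chromosome medians were not computed without the filter, so the value of 0.976 cannot be placed among them.

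**Figure D4:**
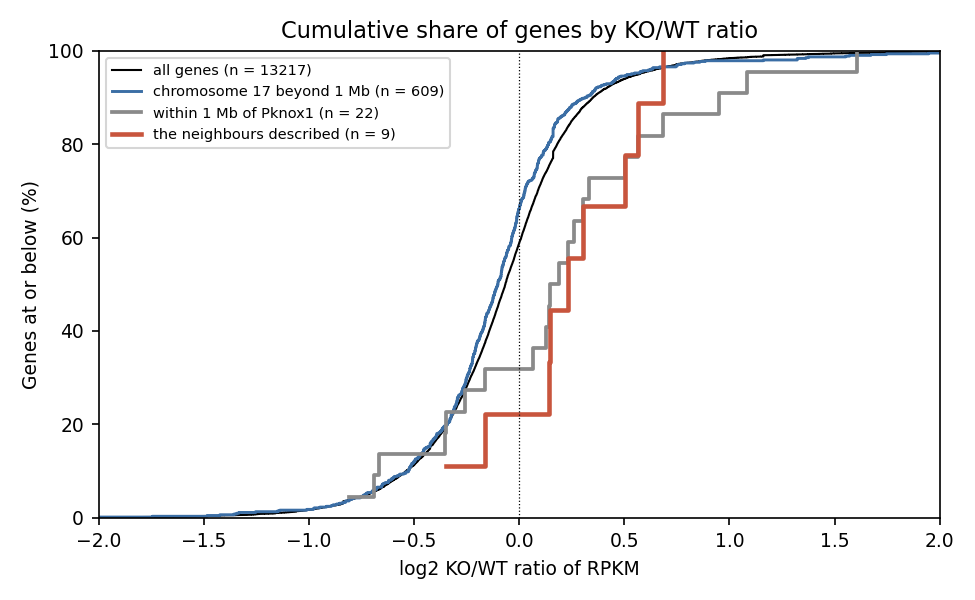
Cumulative share of genes (%) by log2 KO/WT ratio of RPKM, for all genes, chromosome 17 beyond 1 Mb of Pknox1, genes within 1 Mb, and the 9 expressed neighbours, each with an RPKM above 1 in both libraries. The curves of the neighbours and of the locus lie to the right of the others over most of their range, with 77.8% of the neighbours and 41.2% of all genes above 0.

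Prep1 peaks were then placed on the same stretch of chromosome. The strongest of the 14 peaks within 1 Mb covered the start of Pknox1 itself (chr17:31701164-31702425), with a score of 219, which is the fold enrichment over input, and rank 44 of 3902. Its motif site lies in the first intron. Of the 10 neighbours none had a peak from 500 bp before to 100 bp after its start, beside 10.5% of the expressed genes with an annotated start. None had a peak within 5 kb of its start either, beside 14.5%, and 11.7% for a window of 1 kb. Within 50 kb, 5 of the 10, Abcg1, Slc37a1, Wdr4, Cbs and Sik1, had a peak, beside 37.7%. Wdr4 is in this group through the start peak of Pknox1, which lies 44.2 kb away, and Cbs through the peak of score 14 near the end of Pknox1, 30.9 kb away. The only peak inside a neighbour lay in an intron of Abcg1 (chr17:31210070-31210740), 15.4 kb from its start, with a score of 14 and without the decamer. Sik1 had peaks of score 14 and 26 at 35.8 kb and 47.3 kb from its start. The starts of Hsf2bp and Rrp1b, on the same side, were 104 kb and 106 kb from the closest peak, which had a score of 16. This peak (chr17:32066768-32067510) lies much closer to the far end of Hsf2bp, at chr17:32081714.

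Scores of all peaks in the file ran from 4 to 336 with a median of 21. The peaks closest to the starts of the neighbours scored 12 to 16, below this median, except for the start peak of Pknox1. The peak between Cryaa and Sik1 that holds the decamer, with a score of 26, was above it. Apart from the start peak of Pknox1, the strong peaks of the locus covered the starts of Glo1, with a score of 160, and Akap8l, with a score of 104. Glo1, the glyoxalase, had a ratio of 0.836, and Akap8l was past the filter for lower genes. Weak peaks covered the starts of Rsph1, with a score of 12, and Akap8, with a score of 11, and their ratios were 3.04 and 1.09. No promoter of the 10 neighbours, taken from 250 bp before to 50 bp after the start, held the decamer on either strand, beside 0.862% of all promoters. A looser form, TGA, any base, TG, any base, then CAG, which takes in the first, was absent from them as well, beside 2.21% of all promoters. This says only that these letters are not in these windows.

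**Figure D5:**
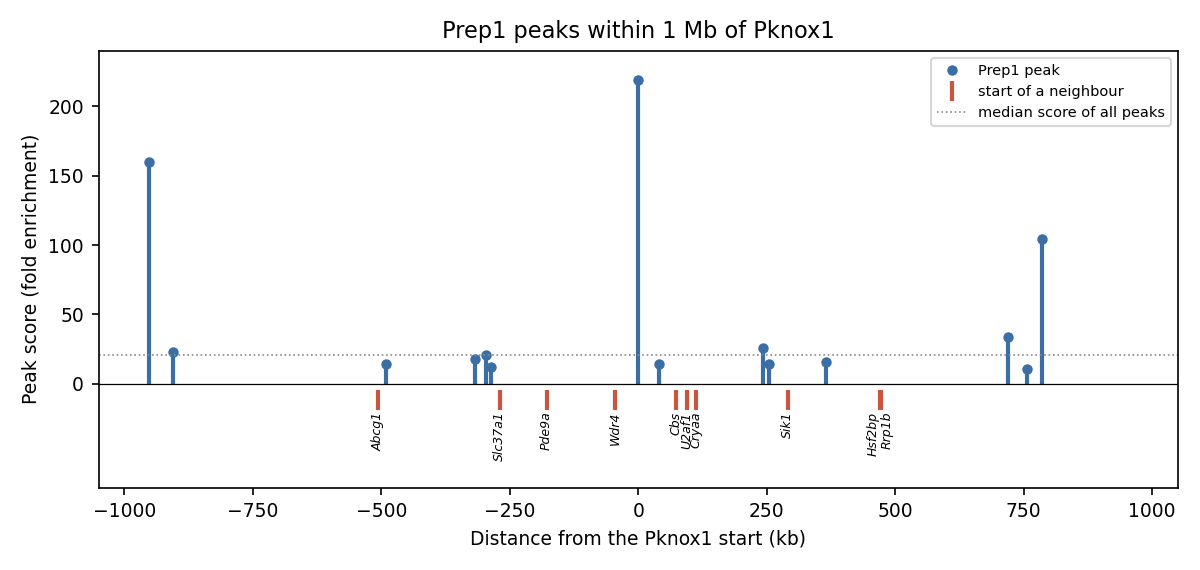
Score (fold enrichment over input) of the 14 Prep1 peaks within 1 Mb of Pknox1 against the distance of the peak centre from the Pknox1 start in kb, with the starts of the 10 neighbours as red ticks and the median score of all peaks, 21, as a dotted line. The start peak of Pknox1 reaches 219, and the peaks between the neighbours stay between 12 and 26.

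Genes that work with the neighbours or belong to their families lie elsewhere in the genome and show whether the same pathways differed away from the locus. Of 35 such genes 34 were found and 30 had an RPKM above 1 in either library, of which 6 were lower and 2 higher by the filter, beside 13.3% and 6.91% of all genes. Their median ratio was 0.942. Brca2, which Hsf2bp binds, was higher, with a ratio of 1.62 (95% interval 1.54 to 1.70). Others of this group were closer to 1: Hsf2 had a ratio of 1.10 and Dmc1, which acts in meiotic recombination, 1.41 (95% interval 1.13 to 1.77). For Sik1, the related kinases Sik2 and Sik3 had ratios of 0.839 and 0.942, below 1 where Sik1 was above it. The coactivators that these kinases phosphorylate had ratios of 0.863 for Crtc1, 0.804 for Crtc2 and 0.673 for Crtc3, the last of them past the filter for lower genes.

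Partners of the RNA genes went in both directions. Mettl1, the catalytic partner of Wdr4, had a ratio of 0.974, U2af2, the large subunit beside U2af1, 1.06, and Rrp1, the relative of Rrp1b, 0.999. Of the other splicing genes listed with U2af1, U2af1l4 had a ratio of 0.736 (95% interval 0.653 to 0.829), whereas Zrsr2 (1.31), Zrsr1 (1.26) and Sf1 (1.16) had intervals above 1. Cth, the enzyme that follows Cbs in the same pathway, had a ratio of 0.862 (95% interval 0.815 to 0.912), below 1 as for Cbs. The relatives of Slc37a1 had ratios of 0.697 for Slc37a2, 0.869 for Slc37a3 and 0.832 for Slc37a4, all below 1 where Slc37a1 was above it. Among phosphodiesterases, Pde1b was higher (1.73) and Pde2a lower (0.627), while Pde9a was within counting error of 1. Nr1h3, a nuclear receptor that drives Abcg1, was lower (0.618), at an RPKM of 1.63 in wild type and 1.01 in the library labelled Prep1-/-. The related receptor Nr1h2, also listed with Abcg1, was expressed far more, at an RPKM of 122 and 110. Its ratio was closer to 1, at 0.905 (95% interval 0.880 to 0.931). Abca1, a further cholesterol exporter, had a ratio of 1.29. Of the lens genes, Cryab, the widely expressed relative of Cryaa, was lower (0.655), and so was the heat shock factor Hsf4 (0.325). Hsf4 and Crtc1 lie on chromosome 8, where the median ratio was 0.779.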

How the data were processed

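For the RNA samples the authors made polyA+ libraries, read both ends of each fragment over 50 bp, and ran RSEM on Ensembl release 63 genes (mm9), then DESeq; program versions are not given in the sources used here. The authors deposited a whole-number read count per gene, not normalized. The authors also deposited RPKM, which matched the count plus 1 with a fixed factor between libraries of 1.12; it was listed as Inf for 85 genes, which were left out. For ChIP the authors deposited peaks called with MACS on BWA alignments of 36 bp reads, with a score equal to rounded fold enrichment over input. The input sample was not analysed here.

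Ratios are KO/WT of deposited RPKM, without a pseudocount. Totals were 29596294 and 25717811 reads. Coordinates and exons come from GENCODE M1 on NCBIM37 (21446 of 22718 identifiers found); peak starts were read as 1-based. The Prep1 decamer and its looser form were searched on both strands. Genes named are Pknox1, the 10 neighbours, other genes within 1 Mb with RPKM above 1 in either library and a symbol that is no clone name, the partner genes and the ES cell markers. The values of 1 partner gene are not reported here. The neighbours and lists were chosen with earlier results of these data known. No test was run, since each genotype has 1 library; intervals and calls were tested on simulated data. Alternatives were 3 scalings, pseudocounts, other RPKM filters, thresholds and windows. The software was scipy 1.17.1 for intervals, pandas 2.3.3 and numpy 2.4.6 for tables, and matplotlib 3.10.9 for figures, under Python 3.11.15.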

Additional observations from a re-analysis of the deposited data

How the results depend on the processing

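No paired analysis was possible because each genotype has 1 library, and leaving out a replicate was not possible either. The median ratio of the 9 expressed neighbours stayed between 1.13 and 1.26 under 3 scalings and 2 pseudocounts. Of the 50 values of the 10 neighbours under these 5 alternatives, 5 left the gene's counting interval. All 50 kept their side of 1, which says little about stability. A pseudocount cannot move a ratio across 1. The scalings all raised the ratios, by factors of 1.03 to 1.07, so a ratio above 1 could not cross it.

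The number of neighbours higher by the filter was 1, and became 2 with scaling by summed reads or to the median of expressed genes (Sik1 added), 3 with scaling to chromosome 17 outside the locus (Slc37a1 added), and 0 with thresholds of 0.5 and 2. It was also 0 where the whole interval had to pass the threshold, an alternative chosen after seeing the data. The number lower was 0, and became 1, Cryaa, without an RPKM filter. Intervals below 1 fell from 2 neighbours to 1 under each of the 3 scalings (Wdr4 lost), a comparison added after seeing the data. The median ratio within 1 Mb was 1.12, and 0.976 without a filter and with 0.1 added to RPKM, where genes of low expression enter. Within 0.5 Mb 1 gene was lower and 2 were higher, against 4 and 4 within 1 Mb. Partner genes were 1 lower and 0 higher with thresholds of 0.5 and 2, and 3 lower with a pseudocount of 1. The peak file has no p-value or FDR column and as many peaks as the study's own threshold left, so no stricter threshold of that kind was run; of 14 peaks within 1 Mb, 7 had a score at or above the median, an alternative chosen after seeing the data. The causes of these shifts were not tested beyond the change of filter or window itself. Depth limits Cryaa, Pde9a and U2af1 most, which have the fewest reads among the neighbours.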
